A study of Homo sapiens with 12 samples.

Results

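The miR-193 and miR-365 microRNAs come from a duplicated pair of genes, and the names followed here were hsa-miR-193a-3p, hsa-miR-193a-5p, hsa-miR-193b-3p, hsa-miR-193b-5p and hsa-miR-365a-3p. They are 5 of 1854 miRNA names counted in HCT116 and of 1611 counted in HEK293T, and all 5 passed the low-count filter in both lines. The set was chosen by name with measured values known, namely the high reads of hsa-miR-193a-3p with the dsRBD deletion in HEK293T, so that contrast is given as a description with no test. The study sequenced small RNA by AQ-seq, a protocol built to reduce ligation bias, from human HCT116 cells (colorectal carcinoma) and HEK293T cells (embryonic kidney), all of them rescued with a form of DICER. The rescue was WT DICER, DICER lacking its dsRBD, the domain that binds double-stranded RNA (dsRBD deletion), or the form labelled AA, whose changed residues the labels do not give. Each of the 6 groups had 2 libraries and no further treatment is labelled. The labels do not say whether the 2 libraries came from separate cultures or clones, or how much of each DICER form the cells made, so p-values measure only the spread between these libraries.

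DICER cuts the loop off a miRNA hairpin that DROSHA has already released, leaving a duplex of a 5p and a 3p strand, of which one is usually kept by an Argonaute protein and the other is degraded. The DICER cut forms the 3′ end of the 5p strand and the 5′ end of the 3p strand, and so places the seed, the stretch near the 5′ end that pairs with target mRNAs, of 3p miRNAs. miR-193a-3p and miR-193b-3p are studied as growth-restraining miRNAs that lower cyclin D1, MCL1 and KIT in various tumours, and the miR-193b and miR-365 pair is also known from brown fat and muscle biology.

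The mature strands are shown because the paralogs differ at few bases and the counts depend on telling them apart. Sequences are those of RefSeq (GRCh38.p14), and all 5 names matched. Capitals mark the seed, bases 2 to 8 from the 5′ end.
miR-193a-3p: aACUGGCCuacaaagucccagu
miR-193b-3p: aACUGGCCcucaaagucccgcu
miR-193a-5p: uGGGUCUUugcgggcgagauga
miR-193b-5p: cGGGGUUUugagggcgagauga
miR-365a-3p: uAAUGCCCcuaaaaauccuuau
miR-365a-5p: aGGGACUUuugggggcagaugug
miR-365b-5p: aGGGACUUucaggggcagcugu
The seed of miR-193a-3p was the same as that of miR-193b-3p and of no other miRNA name in the table. The 3p strands matched at 18 of 22 bases, and counted from the 5′ end of miR-193a-3p the differences to miR-193b-3p were U9C, A10U, A20G and G21C. The 5p strands also matched at 18 of 22 bases and differed at U1C, U5G, C6U and C11A from miR-193a-5p to miR-193b-5p, of which U5G and C6U lie within the seed. Neither 5p seed was shared with another name. miR-365a-3p and miR-365b-3p were identical at 22 of 22 bases, so only their 5p strands separate the 2 miR-365 genes.

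The hairpins are shown because their 2 arms are counted separately and compared with each other. Capitals mark the 5p arm and then the 3p arm, and the lower-case stretch between them holds the loop that DICER removes.
MIR193A: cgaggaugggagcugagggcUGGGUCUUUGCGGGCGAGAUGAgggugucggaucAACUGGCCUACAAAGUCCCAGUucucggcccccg
MIR193B: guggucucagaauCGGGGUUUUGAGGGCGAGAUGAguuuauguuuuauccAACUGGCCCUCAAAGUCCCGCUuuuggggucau
MIR365A: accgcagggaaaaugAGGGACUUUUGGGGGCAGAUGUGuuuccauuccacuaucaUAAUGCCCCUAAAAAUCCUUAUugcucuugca
MIR193A lies at chr17:31559996-31560083 (GRCh38, plus strand) and overlaps no other annotated gene. MIR193B lies at chr16:14303967-14304049 and MIR365A at chr16:14309285-14309371, both on the plus strand and both in an intron of the lincRNA gene MIR193BHG, with 5235 bases between them. MIR365B, the second miR-365 gene, lies at chr17:31575411-31575521 on the plus strand in an exon of a lincRNA gene, 15327 bases from MIR193A. The stretch between the arms was 12 bases in MIR193A, 15 in MIR193B and 17 in MIR365A. RNAfold gave minimum free energies of -50.2, -39.3 and -34.5 kcal/mol in that order. In those folds the last base of the 5p arm was paired in MIR193A and MIR365A and unpaired in MIR193B, and the first base of the 3p arm was paired in both miR-193 hairpins and unpaired in MIR365A.

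The libraries held between 824987 and 4498886 miRNA reads, and the 4 deletion libraries were the shallowest, at 824987 and 1353117 in HCT116 and 1059778 and 1226813 in HEK293T. A total of 3 reads was worth 0.667 to 3.64 CPM, counts per 1000000 miRNA reads. Added spike-in RNAs, 30 in number, took 0.272% to 1.55% of reads in HCT116 and 1.2% to 3.54% in HEK293T, and their share was highest in the deletion libraries of each line. Levels below are CPM after TMM scaling, which sets the typical miRNA to no change within a line. Scaled to the spike-ins instead, the median of all names tested moved to -1.77 on the log2 scale with the deletion in HCT116 and to -1.46 in HEK293T, and with AA to -0.59 and -0.68. The spike-in scale called 7 of the 795 HCT116 names higher and 592 lower with the deletion, against 223 and 271 on the TMM scale. The 2 scales therefore answer different questions, relative to other miRNAs and relative to added RNA, and both are given. The line markers miR-31-5p and miR-200c-3p (HCT116) and miR-10a-5p, miR-10b-5p and miR-196a-5p (HEK293T) separated the lines in all libraries. The HCT116 marker miR-141-3p did not, at 3.64 to 62.7 CPM by plain totals in HCT116 and 0.944 to 24.4 in HEK293T. The intestinal miR-192-5p and miR-194-5p were lower in HCT116 (132 to 201 and 235 to 321 CPM by plain totals) than in HEK293T (619 to 1478 and 791 to 1861). Markers of other cell types, 6 names, summed to 345 to 371 CPM with WT, 115 to 116 with the deletion and 415 to 429 with AA in HCT116, mostly miR-142-3p. In HEK293T the same sum was 74.6 to 109 with WT, 373 to 395 with the deletion and 117 to 123 with AA, mostly miR-124-3p. The part of these markers in the results was not tested. In bulk libraries a change in the number of cells and a change in RNA per cell cannot be told apart.

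hsa-miR-193a-3p was the abundant strand of the MIR193A hairpin. In HEK293T it stood at 1905 and 1332 CPM with WT, 19602 and 20587 CPM with the deletion and 2425 and 2260 CPM with AA. Both deletion libraries lay far above the other 4, and their mean share of all miRNA reads was 2.14% against 0.160% with WT. The fitted difference between deletion and WT was 3.63 ± 0.21 on the log2 scale (SE), a 12.4-fold higher level, which ranked 10 among 626 names tested. The corresponding spike-in value was 2.26, so that the direction was the same on both scales. Of all names, 75.6% passed the threshold of an adjusted p of 0.05 in that contrast and 89% had groups that did not overlap. Since the contrast chose the name, nothing is read from it.

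**Figure D1:**
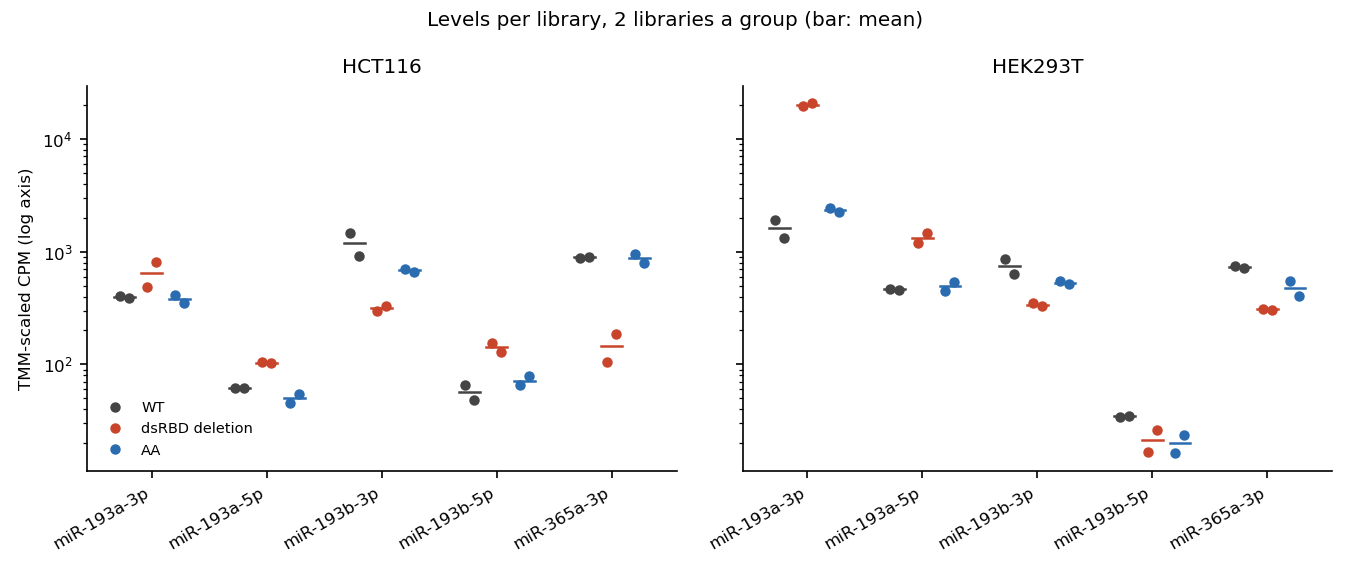
TMM-scaled CPM (log axis) of the 5 miRNAs in each library of HCT116 (left) and HEK293T (right), with points for libraries and bars for the mean of 2. The HEK293T deletion libraries hold 19602 and 20587 CPM of miR-193a-3p, while miR-193b-3p and miR-365a-3p are lower with the deletion than with WT in both lines.

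In HCT116, which the stated reason for the choice does not name, miR-193a-3p stood at 403 and 392 CPM with WT. It stood at 481 and 815 CPM with the deletion and 411 and 353 CPM with AA. The deletion libraries were the highest of the 6 but differed from each other more than the WT libraries did. miR-193a-3p rose by 0.71 ± 0.21 on the log2 scale relative to other miRNAs (edgeR, adjusted p = 0.0135), whereas per spike-in it was lower, at -1.05. The relative rise rested on the second deletion library, without which it was 0.18 (edgeR, adjusted p = 0.292). Per 1000 spike-in reads, miR-193a-3p had 107.5 ± 14.3 reads with WT and 51.6 ± 22.1 with the deletion (SD, n = 2).

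hsa-miR-193a-5p, the partner strand, was carried at 62.0 and 62.1 CPM with WT in HCT116, 105 and 102 CPM with the deletion and 45.8 and 54.6 CPM with AA. No deletion library overlapped the others. It rose with the deletion by 0.74 ± 0.17 on the log2 scale relative to other miRNAs (edgeR, adjusted p = 0.0028) and was lower per spike-in, at -1.04. Without the low-count filter the value was 0.51 and the call was lost. In HEK293T it stood at 467 and 460 CPM with WT, 1192 and 1454 CPM with the deletion and 452 and 537 CPM with AA. Its deletion value against WT there was 1.52 ± 0.18 on the TMM scale and 0.13 on the spike-in scale, the latter close to 0.

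hsa-miR-193b-3p, which carries the same seed, was lower with the deletion in both lines and on both scales. In HCT116 it stood at 1464 and 910 CPM with WT, 299 and 332 CPM with the deletion and 706 and 658 CPM with AA. All 4 altered libraries lay below both WT libraries, the deletion libraries lowest. The deletion lowered miR-193b-3p by 3.76-fold (log2 -1.91 ± 0.21; edgeR, adjusted p = 1.6e-05), and the spike-in value was -3.64. In HEK293T it stood at 859 and 638 CPM with WT, 348 and 332 CPM with the deletion and 553 and 511 CPM with AA, a deletion value of -1.14 ± 0.19 against WT on the log2 scale and -2.52 per spike-in.

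hsa-miR-193b-5p, its partner strand and one of the scarcer of the 5, stood at 66.2 and 48.2 CPM with WT in HCT116, 155 and 128 CPM with the deletion and 65.5 and 78.4 CPM with AA. It rose with the deletion by 1.29 ± 0.20 on the log2 scale relative to other miRNAs (edgeR, adjusted p = 0.00025). Per spike-in it stood at -0.46, the opposite direction but not called (edgeR, adjusted p = 0.125). In HEK293T the levels were 34.4 and 35.1 CPM with WT, 16.8 and 26.0 CPM with the deletion and 16.3 and 23.7 CPM with AA, from 19 to 120 reads a library. Both altered groups lay below WT there, with a deletion value of -0.68 ± 0.31 on the log2 scale and -2.07 per spike-in.

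hsa-miR-365a-3p, encoded next to miR-193b, fell most in HCT116. It stood at 883 and 904 CPM with WT, 104 and 187 CPM with the deletion and 949 and 794 CPM with AA, so the AA libraries lay on either side of WT. The deletion lowered it 6.02-fold (log2 -2.59 ± 0.23; edgeR, adjusted p = 3.3e-06), with a spike-in value of -4.36. In HEK293T it stood at 741 and 709 CPM with WT, 312 and 306 CPM with the deletion and 553 and 400 CPM with AA, a deletion value of -1.23 ± 0.19 on the log2 scale and -2.61 per spike-in. The reads listed for miR-365a-3p and miR-365b-3p differed by at most 6 in any of the 12 libraries, a chi-square of 0.106 where random assignment to either name would give about 12. Reads were thus either counted under both names or split evenly between them. The level of miR-365a-3p is uncertain by that factor and its gene of origin cannot be told apart, while its changes do not depend on it.

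Relative to other miRNAs, the HCT116 deletion thus raised 3 of the 5 names and lowered 2, against 28.1% of the 795 names tested called higher and 34.1% called lower, and 82.5% with groups that did not overlap. The median over the 5 was 0.71 on the log2 scale and over all names -0.01. By arm, the median was -0.91 over 311 names of 3p strands and 0.30 over 339 names of 5p strands. Under the 5 scalings tried, miR-193b-3p and miR-365a-3p stayed lower, at -3.64 to -1.39 and -4.36 to -2.05. miR-193a-3p, miR-193a-5p and miR-193b-5p were higher under all scalings but the spike-ins.

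**Figure D2:**
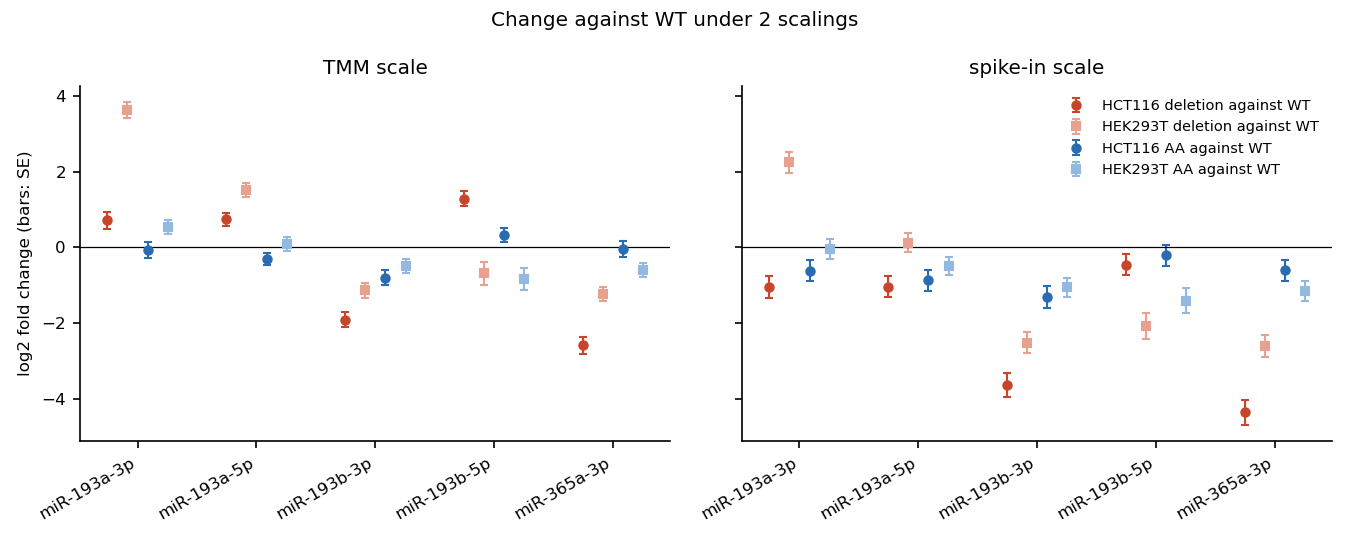
Log2 change against WT of the 5 miRNAs on the TMM scale (left) and the spike-in scale (right), with bars for SE and circles for HCT116, squares for HEK293T. miR-193b-3p and miR-365a-3p are below 0 with the deletion in both panels, while miR-193a-3p, miR-193a-5p and miR-193b-5p in HCT116 change side, from 0.71, 0.74 and 1.29 to -1.05, -1.04 and -0.46.

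Ratios of reads within a library do not depend on scaling. miR-193a-3p per read of miR-193b-3p was 0.275 and 0.430 with WT in HCT116, 1.61 and 2.46 with the deletion and 0.583 and 0.537 with AA. In HCT116 the seed-sharing pair was thus mostly miR-193b-3p with WT and AA and mostly miR-193a-3p with the deletion. The mean log ratio was 5.78-fold higher with the deletion than with WT and 1.62-fold higher with AA, both with an exact two-sided permutation p of 0.333, the smallest that 2 against 2 libraries allow. In HEK293T the ratio was 2.22 and 2.09 with WT, 56.3 and 62.1 with the deletion and 4.38 and 4.42 with AA. The AA libraries were 2.05-fold above WT without overlap (exact permutation p = 0.333), and the deletion libraries 27.5-fold above, given with no test. These WT libraries also entered the contrast that chose the members.

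The ratio of miR-193a-3p to miR-365a-3p was 0.456 and 0.433 with WT in HCT116, 4.61 and 4.36 with the deletion and 0.434 and 0.445 with AA. It was 10.1-fold higher with the deletion (exact permutation p = 0.333) and 0.987 times the WT value with AA. In HEK293T the same ratio was 2.57 and 1.88 with WT, 62.9 and 67.4 with the deletion and 4.39 and 5.65 with AA. Relative to WT, the neighbours miR-193b-3p and miR-365a-3p kept closer to each other in HEK293T and with the HCT116 deletion, but not with HCT116 AA. With HCT116 AA their ratio was 0.608 times the WT value, without overlap. Reads of miR-365a-3p may also come from MIR365B, the gene beside MIR193A. The ratio of miR-193b-3p to miR-365a-3p stayed between 0.900 and 1.28 in all 6 HEK293T libraries. In HCT116 it was 1.66 and 1.01 with WT, 2.86 and 1.78 with the deletion and 0.744 and 0.828 with AA.

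**Figure D3:**
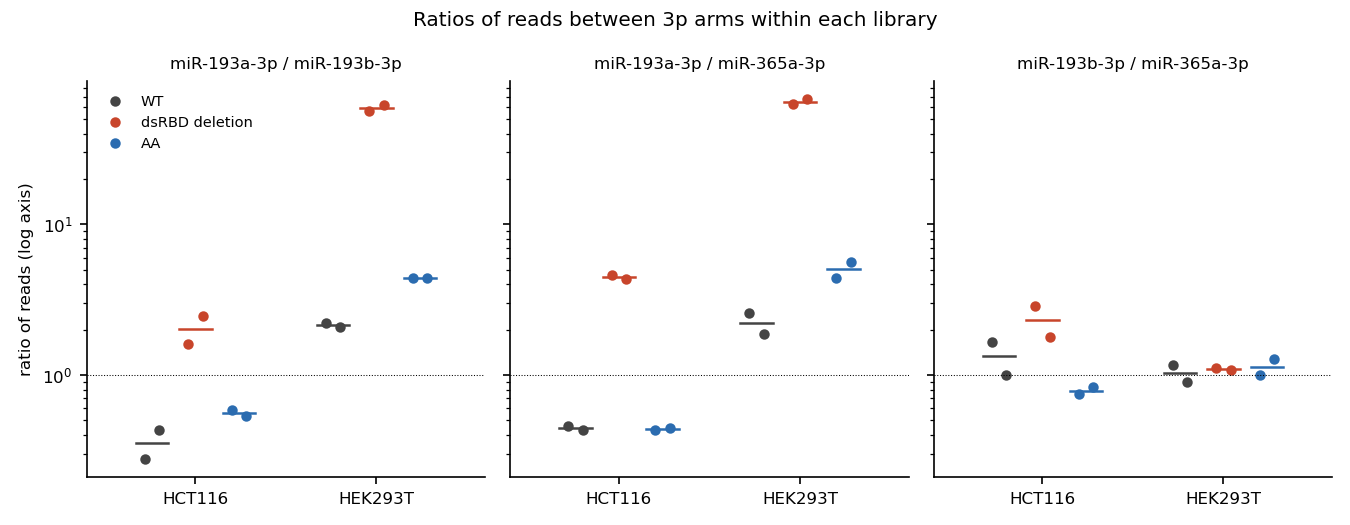
Ratio of reads between 3p strands within each library (log axis), points for libraries and bars for group means, with a dotted line at a ratio of 1. In HCT116 miR-193a-3p per miR-193b-3p crosses that line only in the deletion libraries (1.61 and 2.46), and in HEK293T the deletion libraries reach 56.3 and 62.1, while miR-193b-3p per miR-365a-3p stays between 0.900 and 1.28 in HEK293T.

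The arms of 1 hairpin share a precursor, so their ratio compares strands made from the same molecule. In HCT116 the 3p share of MIR193B reads was 95.7% and 94.97% with WT, 65.8% and 72.2% with the deletion and 91.5% and 89.3% with AA. Exact Clopper-Pearson 95% intervals for the deletion libraries were 61.2% to 70.3% and 69.0% to 75.3%, and cover counting error only. The 3p to 5p ratio of MIR193B fell by 3.18 ± 0.24 on the log2 scale, or 9.07-fold (edgeR arm-by-group test, adjusted p = 7.2e-11). MIR365A had the larger value. Its 3p share was 97.8% and 98.5% with WT, 43.5% and 60.8% with the deletion and 98.1% and 97.7% with AA, and the ratio fell by 5.54 ± 0.31 on the log2 scale, or 46.4-fold (edgeR, adjusted p = 4.1e-13). No shift was called for MIR193A. Its 3p share was 86.7% and 86.3% with WT and 82.0% and 88.9% with the deletion, and the change in ratio was -0.05 ± 0.27 on the log2 scale (edgeR, adjusted p = 0.875). Of 229 hairpins tested in that comparison, 46.7% were called toward 5p and 16.2% toward 3p, with a median of -0.87, so a shift toward 5p was common and 62.9% were called either way.

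The shift of MIR365A was made of both strands. miR-365a-5p, the scarcer strand, stood at 20.1 and 13.6 CPM with WT in HCT116, 135 and 121 CPM with the deletion and 18.1 and 18.8 CPM with AA. Both deletion libraries lay well above the other 4. It rose by 2.90 ± 0.22 on the log2 scale, or 7.48-fold (edgeR, adjusted p = 8.3e-07), ranking 5 from the highest of 795 names, and per spike-in it was also higher, at 1.17. miR-365b-5p, from the gene beside MIR193A, had only 5 to 18 reads a library in HCT116 and rose by 2.04 ± 0.48 (edgeR, adjusted p = 0.0038; 0.30 per spike-in). Because the miR-365 3p reads pool both genes, the ratio for MIR365A sets 1 gene's 5p strand against a 3p count that may hold both.

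In HEK293T the arms behaved differently by hairpin, given as a description. The 3p share of MIR193A was 80.3% and 74.3% with WT, 94.3% and 93.4% with the deletion and 84.3% and 80.8% with AA, a deletion value of 2.15 ± 0.24 for the log2 ratio of 3p to 5p. For MIR193B the value was -0.43 ± 0.36, with 3p shares of 96.2% and 94.8% with WT and 95.4% and 92.7% with the deletion, which overlapped. For MIR365A it was -3.55 ± 0.40, with 3p shares of 99.5% and 99.3% with WT and 93.4% and 93.9% with the deletion, resting on 10 to 26 reads of miR-365a-5p. Of 180 hairpins, 27.8% were called toward 3p and 30% toward 5p in that contrast.

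**Figure D4:**
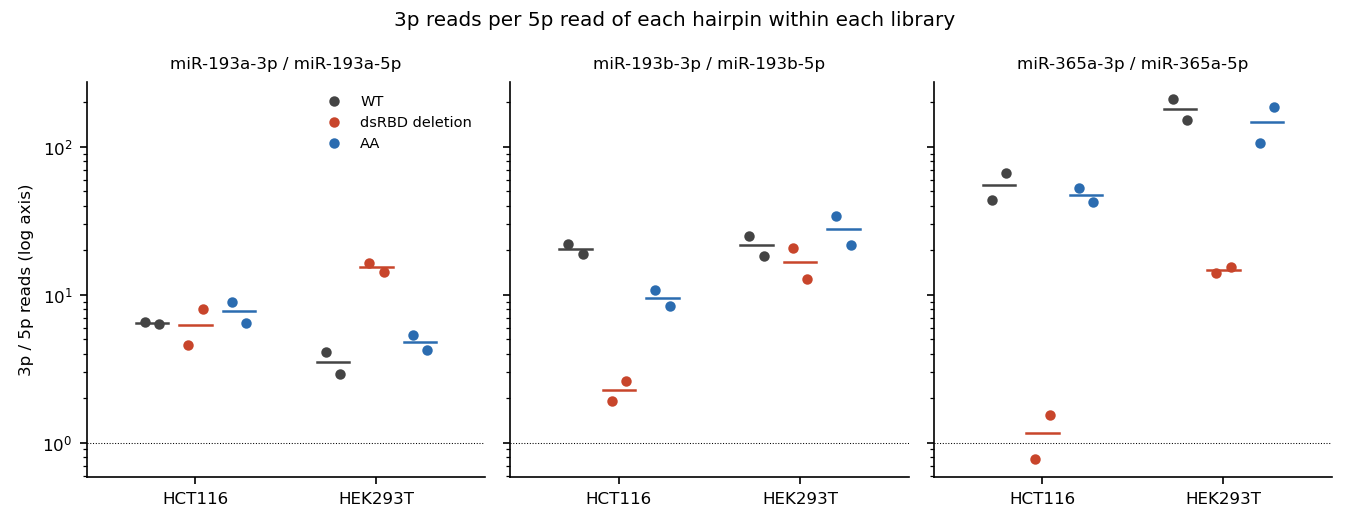
Reads of the 3p strand per read of the 5p strand of each hairpin within each library (log axis), points for libraries and bars for group means. With the deletion, the ratio falls in HCT116 for miR-193b and miR-365a while the groups overlap for miR-193a, and in HEK293T it is higher for miR-193a and lower for miR-365a.

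The 5p strands of the miR-365 genes differ in sequence and could be counted apart, although their reads depend on strand retention as well as on the output of each gene. miR-365a-5p per read of miR-365b-5p was 11.4 and 4.09 with WT in HCT116, 13.1 and 11.6 with the deletion and 11 and 8 with AA. In HEK293T the same ratio was 0.909 and 0.762 with WT, 3.12 and 4.33 with the deletion and 0.824 and 0.333 with AA, from 3 to 26 reads of either strand. All HCT116 libraries thus held more 5p reads of the gene beside miR-193b, while in HEK293T with WT the counts of the 2 genes were 10 and 11 in the first library and 16 and 21 in the second. The hairpin MIR4725, which lies between MIR193A and MIR365B, had at most 8 reads for either strand in any library that listed it and was not tested. Its 5p strand was not listed for HCT116.

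The AA form was compared with WT on the same WT libraries as the deletion, so the comparisons are not independent. In HCT116 it lowered 1 of the 5 names and raised none, against 6.16% and 1.26% of all names and 53.8% without overlap. That name was miR-193b-3p, at -0.80 ± 0.20 on the log2 scale (edgeR, adjusted p = 0.0331; -1.32 per spike-in). Without the first WT library its value was -0.42 (edgeR, adjusted p = 0.192), and the call was also lost without either AA library, with library totals and with upper-quartile factors. miR-193a-3p and miR-365a-3p had AA values of -0.06 ± 0.21 and -0.04 ± 0.21, miR-193a-5p -0.30 ± 0.16 and miR-193b-5p 0.33 ± 0.20, with adjusted p-values from 0.353 to 0.940 in edgeR. The 3p to 5p ratio of MIR193B fell by 1.11 ± 0.23 with AA (edgeR, adjusted p = 0.0019), where 8.73% of hairpins were called toward 5p and 4.8% toward 3p. That call was lost without the first WT library (-0.99, edgeR adjusted p = 0.0698) and without the second AA library (-0.93, edgeR adjusted p = 0.0775). The ratios of MIR193A and MIR365A had AA values of 0.24 ± 0.27 and -0.18 ± 0.32 (edgeR, adjusted p = 0.681 and 0.812).

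The HEK293T WT libraries also entered the contrast that chose the members, so AA against WT there is not independent of that choice. In HEK293T, AA against WT also called 1 of the 5 names lower and none higher, against 15.2% and 6.23% of all names and 59.6% without overlap. The name was miR-365a-3p, at -0.60 ± 0.19 (edgeR, adjusted p = 0.0418; -1.15 per spike-in), a call that DESeq2 did not make (adjusted p = 0.0523) and that was lost without the first WT library (-0.56) or the second AA library (-0.32). miR-193b-3p and miR-193b-5p had values of -0.49 ± 0.18 and -0.84 ± 0.30 (edgeR, adjusted p = 0.0837 and 0.0689). miR-193a-3p had a value of 0.53 ± 0.19 (edgeR, adjusted p = 0.0721), which DESeq2 called (0.61, adjusted p = 0.0296), and which was -0.03 per spike-in. miR-193a-5p had a value of 0.09 ± 0.18 (edgeR, adjusted p = 0.771). None of the 3 hairpins was called for a change of arm ratio with AA in HEK293T by edgeR, with values of 0.47 ± 0.23 for MIR193A, 0.38 ± 0.33 for MIR193B and -0.50 ± 0.50 for MIR365A and adjusted p-values of 0.228, 0.514 and 0.592, where 10.6% of hairpins were called.

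Set against the deletion, AA in HCT116 had 2 of the 5 names higher and 3 lower, against 29.6% and 26.9% of all names and 78.4% without overlap. miR-365a-3p was 5.87-fold higher with AA than with the deletion (log2 2.55 ± 0.23; edgeR, adjusted p = 4.6e-06) and miR-193b-3p 2.16-fold higher (1.11 ± 0.20; edgeR, adjusted p = 0.00095). miR-193a-3p, miR-193a-5p and miR-193b-5p were lower, at -0.77 ± 0.21, -1.04 ± 0.17 and -0.96 ± 0.20 (edgeR, adjusted p = 0.0108, 0.0004 and 0.0021). Per spike-in their values were 0.42, 0.17 and 0.25, and none was called (edgeR, adjusted p = 0.182, 0.639 and 0.442). The call of miR-193a-3p was lost without the second deletion library (-0.24; edgeR, adjusted p = 0.189) and without either AA library, and that of miR-193b-5p without the first AA library (-0.72; edgeR, adjusted p = 0.0594). The HEK293T values of AA against the deletion, with no test, were -3.10 for miR-193a-3p, -1.42 for miR-193a-5p, 0.65 for miR-193b-3p, -0.15 for miR-193b-5p and 0.63 for miR-365a-3p. Per spike-in they were -2.29, -0.62, 1.46, 0.66 and 1.46 in the same order.

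Between the lines with WT DICER, the 2 miR-193a strands were higher in HEK293T and the 2 miR-193b strands lower, against 32% of 844 names called higher, 41.2% called lower and 87.3% without overlap. The HEK293T WT libraries also entered the contrast that chose the members, so this comparison is not independent of that choice. miR-193a-3p was 3.87-fold higher in HEK293T (log2 1.95 ± 0.20; edgeR, adjusted p = 1.2e-08) and miR-193a-5p 7.19-fold higher (2.85 ± 0.20; edgeR, adjusted p = 1.0e-11). miR-193b-3p and miR-193b-5p were lower by 1.67-fold and 1.71-fold (edgeR, adjusted p = 0.0022 and 0.0085), and without the first HCT116 WT library these values were -0.39 and -0.57 on the log2 scale (edgeR, adjusted p = 0.136 and 0.091). Both calls were also lost with library totals and with upper-quartile factors. miR-365a-3p had a value of -0.36 ± 0.21 (edgeR, adjusted p = 0.128). Per spike-in the median of all names was -1.91 between the lines. The miR-193a-3p value was then 0.41 and no longer called (edgeR, adjusted p = 0.186), and that of miR-193a-5p was 1.29. miR-193b-3p and miR-193b-5p were at -2.23 and -2.30 on that scale, and miR-365a-3p was called lower, at -1.92 (edgeR, adjusted p = 8.9e-09). The labels do not say whether both lines received the same amount of spike-in.

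On a scale common to the 12 libraries, miR-193a-3p was ordered HEK293T deletion (22056 CPM), HEK293T AA (2445), HEK293T WT (1533), HCT116 deletion (592), HCT116 WT (396) and HCT116 AA (382). Neighbouring groups did not overlap in their libraries except HCT116 WT and HCT116 AA. miR-193b-3p was ordered HCT116 WT (1183 CPM), HEK293T WT (711), HCT116 AA (681), HEK293T AA (556), HEK293T deletion (373) and HCT116 deletion (289). The libraries of HEK293T WT and HCT116 AA overlapped. Per 1000 spike-in reads the orders differed. miR-193a-3p was then at 603.5 in the HEK293T deletion, 131.4 in HEK293T WT, 114.8 in HEK293T AA, 107.5 in HCT116 WT, 76.3 in HCT116 AA and 51.6 in the HCT116 deletion. The libraries of HEK293T WT, HEK293T AA and HCT116 WT overlapped. miR-193b-3p was at 313.6 in HCT116 WT, 136.1 in HCT116 AA, 60.7 in HEK293T WT, 26.1 in HEK293T AA, 24.8 in the HCT116 deletion and 10.2 in the HEK293T deletion. The libraries of HEK293T AA and the HCT116 deletion overlapped, and the 2 deletion groups stood in the opposite order to that on the CPM scale.

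The difference between the lines in the AA value was not called for any of the 5 names by edgeR, where 3.91% of names were called. DESeq2 called none of the 5 either. That difference also rests on the HEK293T WT libraries, which entered the contrast that chose the members. With library totals edgeR called miR-193b-5p (-1.39, adjusted p = 0.0246). That setting called 71 names lower and 7 higher, against 25 and 8 with TMM. The differences, HEK293T minus HCT116, were 0.73 ± 0.28 for miR-193a-3p, 0.51 ± 0.27 for miR-193a-5p, 0.44 ± 0.28 for miR-193b-3p, -1.06 ± 0.38 for miR-193b-5p and -0.45 ± 0.30 for miR-365a-3p, with adjusted p-values from 0.145 to 0.515 in edgeR. The differences in the deletion value, with no test, were 3.26, 1.09, 1.10, -1.67 and 1.68 in the same order. The median was 0.34 over all names, 0.79 over 334 names of 3p strands and -0.09 over 346 names of 5p strands. With library totals the 5 differences were 2.49, 0.36, 0.36, -2.38 and 0.93, and without the first HCT116 WT library the miR-193b-3p value was 0.63.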

How the data were processed

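Small RNA of total RNA from 12 AQ-seq libraries was used, in 6 groups of 2. Reads were trimmed with cutadapt, mapped with BWA and assigned with bedtools, and hg38 and mm10 are the builds named, per the submitters' processing notes, with no versions or roles. Neither the miRNA annotation nor the rule for reads matching several hairpins is named in the sources used here. The deposited values are raw read counts per miRNA name and spike-in, 1 table a library, per the file headers and values.

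The members and lists were chosen with earlier results of these data known. Spike-in rows were kept out of library sizes and tests. Each line was fitted with edgeR 4.0.16 (R 4.3.3, limma 3.58.1) on its 6 libraries (TMM, filterByExpr with a minimum count of 10, group means, quasi-likelihood F test, two-sided, Benjamini-Hochberg over all names, threshold 0.05). Each such fit left 3 residual degrees of freedom. Contrasts between lines used the 12 libraries together, over 1494 shared names. SE is the absolute log2 change over the square root of F. Arm use was an arm-by-group interaction blocked by library, where both arms reached 10 reads in 2 or more libraries. Alternatives were DESeq2 1.42.0, other scalings and filters, the replicate block and leaving out each library. Named besides the 5 members were the other arms and neighbours of their hairpins, names sharing a seed, and the 3 names most correlated with each of 3 members. Hairpins were folded with RNAfold (ViennaRNA 2.7.2). The level and arm tests were run on simulated counts with known changes drawn in both directions. A shift of the typical miRNA was not simulated. Depth limits low counts, and intervals cover counting error only.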

Additional observations from a re-analysis of the deposited data

Results flagged for a closer look

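miR-193b-5p differed in direction between the lines with the deletion. Relative to other miRNAs both HCT116 deletion libraries lay above WT (1.29 on the log2 scale) and both HEK293T deletion libraries below it (-0.68), each in the fit of its own line. In the fit of the 12 libraries together, which scales the lines jointly, the difference between the lines was -1.67 (HEK293T minus HCT116), and it was not tested because the HEK293T contrast chose the members. Per spike-in read both values were negative, at -0.46 and -2.07, and the HCT116 value was not called on that scale (edgeR, adjusted p = 0.125).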

How the results depend on the processing

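Of 531 alternative values of 45 tested results for single names and hairpins, 453 kept their sign and side of the threshold. With the same sign, 28 lost and 16 gained a call. A further 6 called values changed sign, whether or not the new value was called, and 28 values not called in either setting changed sign. Values are log2 changes in the order miR-193a-3p, miR-193a-5p, miR-193b-3p, miR-193b-5p, miR-365a-3p where 5 are given. Spike-in scaling called 7 names higher and 592 lower with the HCT116 deletion (223 and 271 in the report), 1 and 197 with HCT116 AA (10 and 49), 477 and 11 for HCT116 AA against the deletion (235 and 214), 7 and 234 with HEK293T AA (39 and 95) and 91 and 561 between the lines (270 and 348). It changed the sign of the HCT116 deletion values of miR-193a-3p (-1.05), miR-193a-5p (-1.04) and miR-193b-5p (-0.46). The HCT116 AA values of the same names against the deletion also changed sign (0.42, 0.17 and 0.25). Among these, only miR-193a-3p and miR-193a-5p with the deletion were called on the spike-in scale. Spike-in scaling made calls for HCT116 AA in miR-193a-5p (-0.87) and for HEK293T AA in miR-193b-3p (-1.06) and miR-193b-5p (-1.41). The same scaling lost the WT line difference of miR-193a-3p (0.41), gained that of miR-365a-3p (-1.92) and gave HEK293T deletion values of 2.26, 0.13, -2.52, -2.07 and -2.61. With upper-quartile factors these were 4.07, 1.95, -0.70, -0.26 and -0.80. Under the same factors HEK293T AA gained miR-193a-3p (1.00) and miR-193a-5p (0.55) and lost miR-365a-3p (-0.15). Over all names, they called 129 higher and 41 lower with HEK293T AA (39 and 95 in the report). Also under these factors, HCT116 AA lost miR-193b-3p (-0.67), and the line difference lost miR-193b-3p (-0.28) and miR-193b-5p (-0.33). With library totals HCT116 AA lost miR-193b-3p (-0.64), and the line difference lost miR-193b-3p (-0.46) and miR-193b-5p (-0.52). Library totals called the AA line difference of miR-193b-5p (-1.39), where 71 names were called lower and 7 higher (25 and 8 in the report). They gave -1.12 for miR-365a-3p with the HEK293T deletion. With DESeq2 size factors HEK293T AA gained miR-193a-3p (0.62) and lost miR-365a-3p (-0.52), as with the DESeq2 Wald test (0.61 and -0.53), which gave -1.35 for miR-365a-3p with the HEK293T deletion. Without a filter the HCT116 deletion lost miR-193a-5p (0.51), HEK293T AA gained miR-193b-5p (-0.96) and the HEK293T deletion values were 3.32, 1.2, -1.45, -1.0 and -1.55. With names of at least 50 CPM, which leaves out miR-193b-5p in HEK293T, HCT116 AA lost miR-193b-3p (-0.80), HEK293T AA gained miR-193a-3p (0.62), and the HEK293T deletion gave 1.75 for miR-193a-5p, -0.90 for miR-193b-3p and -0.99 for miR-365a-3p. Fits of only the groups compared lost HEK293T AA for miR-365a-3p (-0.49), gained the line difference of miR-365a-3p (-0.46) and gave -1.18 for its HEK293T deletion value. The replicate numbers did not pair the libraries (correlations of same-numbered deviations -0.104 to 0.147), and the replicate block lost HCT116 AA for miR-193b-3p (-0.78) and gained HEK293T AA for miR-193a-3p (0.55) and miR-193b-5p (-0.83).

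Leaving out each library gave 0.18 to 0.90 for miR-193a-3p in the HCT116 deletion and -1.11 to -0.42 for miR-193b-3p in HCT116 AA. The HEK293T deletion ranges were 3.26 to 3.88, 1.25 to 1.66, -1.47 to -0.94, -1.16 to -0.41 and -1.40 to -1.23. HEK293T AA gave 0.20 to 0.82 for miR-193a-3p (called without the first WT library), -0.79 to -0.25 for miR-193b-3p (called without the second) and -0.91 to -0.32 for miR-365a-3p. The line difference gave -0.92 to -0.39 for miR-193b-3p and -0.88 to -0.57 for miR-193b-5p. A lone library was assumed to vary like the other groups. Apart from the settings' own construction, the cause was not tested. Groups of 2 limit precision, as do counts of miR-193b-5p and miR-365a-5p in HEK293T.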

Other observations

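Over the 12 libraries, centred within each line, the log2 CPM of 347 names with a mean of at least 50 CPM was correlated with each of 3 members, as a description in which the points share libraries and scaling. The miR-193a-3p profile is set mostly by the 2 HEK293T deletion libraries (22056 CPM on average against 1533 with WT and 2445 with AA), whose values chose the name, so its list largely gives names that were also high there. The names most like miR-193a-3p were miR-548a-3p (r = 0.997), miR-942-5p (0.989) and miR-19b-3p (0.989), while its own partner miR-193a-5p ranked 43 (0.916) and miR-193b-3p had r = -0.51. Most like miR-193b-3p were miR-3615 (0.947), miR-3200-3p (0.944) and miR-1303 (0.942). Its neighbour miR-365a-3p, whose reads may come from both miR-365 genes, ranked 18 (0.895). Most like miR-365a-3p, beside the identical miR-365b-3p, were miR-22-3p (0.972) and miR-551a (0.971). With a prior count of 0.5 in place of 2, miR-23b-3p took the place of miR-3200-3p and miR-27b-3p that of miR-551a.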
